A study of Mus musculus with 6 samples.

Results

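The 10 genes described here are known from intestinal goblet cells: Muc2, Tff3, Fcgbp, Agr2, Clca1, Zg16, Spink4, Creb3l1, Klk1 and Tspan13. They were followed in organoids of Apc Min mice, cultured with DM-aKG or as controls. They were taken by symbol out of 24956 genes measured, and all 10 were found. Values are RPKM, read numbers scaled to gene length and library size, which allow levels of different genes to be compared. The treated group held 3 libraries of Apc Min organoids given DM-aKG, taken here as a dimethyl form of α-ketoglutarate, a metabolite of the TCA cycle. The control group held 3 libraries of Apc Min organoids labelled control treatment. Every organoid thus carried the Min allele of Apc, a nonsense allele of a gene whose protein restrains Wnt signalling, and no Apc wild-type organoids were analysed here. The labels give the tissue as intestine and the cells as primary. No source used here gives the dose, the duration, the vehicle, the intestinal segment or the age of the mice. The design text speaks of 3 biological replicates without saying if mice or only cultures differed, so p-values measure the spread between these libraries only. The title of the series poses α-ketoglutarate as a driver of differentiation, and goblet cells are one of the differentiated cell types of the gut.

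Goblet cells are secretory cells of the intestinal epithelium that make the mucus layer. Progenitors enter the secretory lineage through the transcription factor ATOH1, and SPDEF and the ER stress sensor encoded by Ern2 act later in goblet cell maturation. The mucin MUC2 is folded and dimerised in the endoplasmic reticulum with the help of AGR2, heavily glycosylated in the Golgi, packed into granules and released, and in the lumen it forms a network with FCGBP, CLCA1, ZG16 and the trefoil peptide TFF3. The group is not uniform in this respect: Muc2, Tff3, Fcgbp, Clca1, Zg16, Spink4 and Klk1 encode secreted proteins, AGR2 works mainly in the endoplasmic reticulum, Creb3l1 encodes a membrane-bound transcription factor and Tspan13 a tetraspanin of cell membranes, so the last 2 are goblet cell genes but not secreted products. In bulk RNA a smaller number of goblet cells and less of an mRNA per goblet cell cannot be told apart.

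The libraries held an estimated 32700000 to 34200000 reads each in the DM-aKG group and 32700000 to 33700000 reads in the control group. Markers of the gut epithelium were abundant, with summed levels of 3616 to 4539 RPKM over 7 genes in DM-aKG and 2776 to 2826 RPKM in control. The sums differed mostly through keratins. Krt8, Krt18 and Krt19 averaged 1520, 778 and 924 RPKM in DM-aKG and 831, 408 and 512 RPKM in control. Cdh1 and Vil1 rose less, with means of 218 and 208 RPKM in DM-aKG and 189 and 184 RPKM in control. Epcam was lower, averaging 334 RPKM in DM-aKG and 421 RPKM in control, and Cldn7 overlapped, averaging 245 and 252 RPKM. The 8 fibroblast and muscle markers summed to at most 0.09 RPKM in any DM-aKG library and 0.07 RPKM in any control, with Col3a1, Dcn and Lum at 0 in all 6, and the immune gene Ptprc reached 0.01 RPKM in 1 control library. The 7 immune markers summed to 2.79 to 4.16 RPKM in DM-aKG and 1.64 to 1.91 RPKM in control. The endothelial genes Cdh5 and Kdr were at 0 throughout. DM-aKG replicate 1 stood apart from DM-aKG replicates 2 and 3 in several marker lists. The 8 Paneth cell markers summed to 1696, 749 and 722 RPKM in DM-aKG replicates 1, 2 and 3 and to 2234 to 2919 RPKM in control. The stem cell gene Olfm4 was at 18.8, 2.94 and 2.59 RPKM in DM-aKG and at 79.7 to 103 RPKM in control, and the epithelial keratin gene Krt8 was at 1208, 1655 and 1696 RPKM in DM-aKG and at 810.1 to 853 RPKM in control. The enteroendocrine markers summed to 529.6, 554 and 553 RPKM in DM-aKG, with replicate 1 close to the others. It was also the highest DM-aKG library for 8 of the 10 goblet genes, where 45.8% of all genes tested had their highest DM-aKG value in it. Several values below are also given without this library.

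DM-aKG organoids had lower levels of 7 of the 10 goblet genes, by 57.1% to 77.6% in 6 of them and by 29.0% in Creb3l1, and 3 genes did not pass the test. The 7 were Muc2, Agr2, Spink4, Klk1, Tff3, Fcgbp and Creb3l1, and in each of them every DM-aKG library lay below every control. None was called higher, with 1 (Tspan13) higher at an unadjusted p under 0.05. Groups were compared with limma on log2(RPKM + 0.5), a scale that understates the change of low genes, and calls were made at an adjusted p under 0.05 over 10852 genes. Among all genes, 24.7% of those tested were called lower and 30.9% higher, 55.6% in all. All 3 DM-aKG libraries lay below all 3 controls in 28.9% of genes tested and above them in 35.3%. The median log2 fold change was -1.34 over the 10 members and 0.02 over all genes tested. A called fall of more than 1 on the log2 scale was seen in 1.32% of genes tested and in 6 of the 10 members. All 10 members averaged at least 1 RPKM in each group, so none passed the filter on low values through the controls alone. Klk1 was at the bound, with a mean of 1 RPKM in DM-aKG and 4.25 RPKM in control. Without DM-aKG replicate 1, 8 members were called lower and 0 higher, against 3200 lower and 3660 higher of 10845 genes tested.

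**Figure D1:**
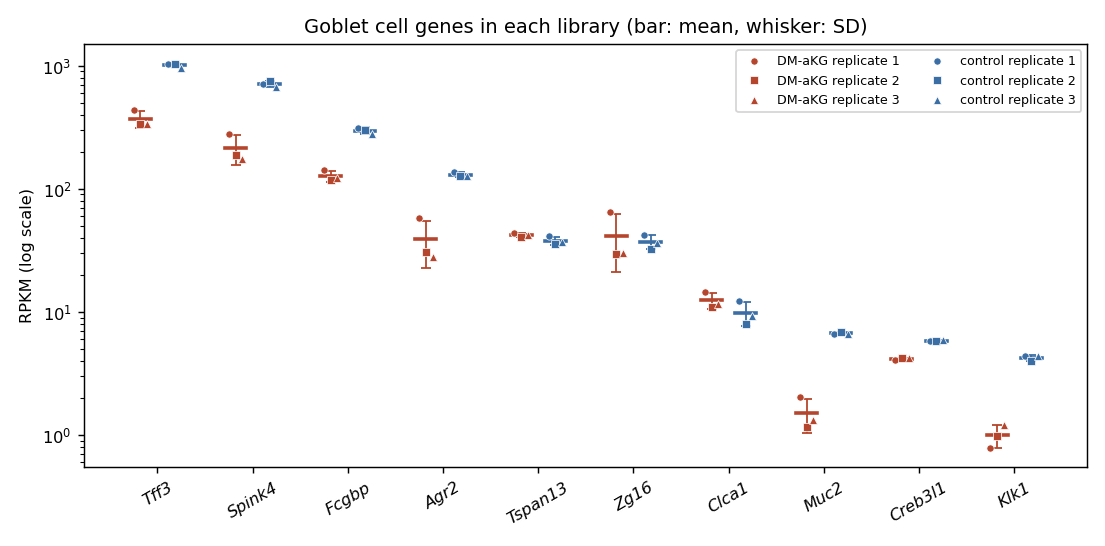
RPKM (log axis) of the 10 goblet cell genes in each DM-aKG library (red) and control library (blue), with group mean and SD (n = 3 each), ordered by the mean in control. The red points of Tff3, Spink4, Fcgbp, Agr2, Muc2, Creb3l1 and Klk1 all lie below the blue ones, and those of Tspan13, Zg16 and Clca1 overlap them.

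Muc2 and Fcgbp encode large proteins that build the mucus. Muc2, the gel-forming mucin of the intestine, stood at 2.04, 1.16 and 1.33 RPKM in DM-aKG replicates 1, 2 and 3 and at 6.67, 6.92 and 6.62 RPKM in control replicates 1, 2 and 3. The highest DM-aKG library stayed far below the lowest control. The log2 fold change of Muc2 was -1.87 ± 0.15 (SE; limma, adjusted p = 5.51e-05), the 25th largest fall among all genes tested. Fcgbp, whose product binds the MUC2 network, was at 141, 118 and 121 RPKM in DM-aKG and at 313, 299 and 276 RPKM in control. Its log2 fold change was -1.22 ± 0.08 (limma, adjusted p = 2.47e-05), the smallest fall among the secreted products that fell. In GENCODE M21 on GRCm38, Muc2 lies on chromosome 7 from 141690340 to 141754693 and Fcgbp on chromosome 7 from 28071236 to 28120862, both on the plus strand and annotated as protein-coding.

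Upstream sequence shows what stands before the starts of genes that fell and of Tspan13, which did not. Windows were found for 5 of the 10 members, Muc2, Fcgbp, Klk1, Agr2 and Tspan13. The 250 bases before the RefSeq start of 4 of them (GRCm38.p6) follow, read 5′ to 3′ on the strand of the gene. Capitals mark CAGCTG, an E-box of the kind bound by ATOH1 and other basic helix-loop-helix proteins, and TATAA, the core of a TATA box, each searched on both strands.
Muc2 (chr7:141690090-141690339, plus strand): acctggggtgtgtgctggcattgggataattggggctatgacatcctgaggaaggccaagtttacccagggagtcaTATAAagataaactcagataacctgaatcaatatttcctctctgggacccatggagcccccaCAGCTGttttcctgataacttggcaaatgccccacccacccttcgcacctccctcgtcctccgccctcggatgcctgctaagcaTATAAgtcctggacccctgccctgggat
Fcgbp (chr7:28070986-28071235, plus strand): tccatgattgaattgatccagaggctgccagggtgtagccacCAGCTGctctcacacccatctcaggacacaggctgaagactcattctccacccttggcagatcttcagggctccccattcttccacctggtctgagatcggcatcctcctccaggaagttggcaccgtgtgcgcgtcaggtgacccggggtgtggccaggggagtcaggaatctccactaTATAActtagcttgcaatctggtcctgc
Agr2 (chr12:35992675-35992924, plus strand): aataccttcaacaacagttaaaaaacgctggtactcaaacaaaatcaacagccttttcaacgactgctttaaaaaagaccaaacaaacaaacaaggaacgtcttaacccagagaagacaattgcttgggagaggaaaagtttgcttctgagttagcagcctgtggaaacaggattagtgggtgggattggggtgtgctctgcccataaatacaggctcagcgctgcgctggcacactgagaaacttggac
Tspan13 (chr12:36042479-36042728, minus strand): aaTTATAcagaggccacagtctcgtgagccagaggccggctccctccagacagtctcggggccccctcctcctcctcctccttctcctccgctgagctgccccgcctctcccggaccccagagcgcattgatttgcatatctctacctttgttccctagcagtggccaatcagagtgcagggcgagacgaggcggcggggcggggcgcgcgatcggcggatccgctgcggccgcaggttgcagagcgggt
CAGCTG occurred once in the window of Muc2, from 112 bases before the start, and once in that of Fcgbp, from 208 bases before it, and it was found in 12.8% of 27025 windows of all genes. TATAA began 28 bases before the start in both Muc2 and Fcgbp, once more in Muc2 at 174 bases and in Tspan13 at 248 bases, and it was found in 23.5% of all windows. CACCC, a core bound by KLF factors, was in 4 of the 5 members' windows and 51.3% of all windows, and GGGCGG, a GC box, in 2 of the 5 and 32.9%. The windows of Agr2 and Tspan13 differed in base composition, with 44.4% and 66.0% G or C, against a median of 52.0% over all windows. These matches describe letters only, and binding was not measured.

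Clca1 and Zg16, partners of MUC2 in the mucus gel, did not pass the test. Clca1, a secreted metalloprotease that cleaves MUC2, was at 14.6, 11.1 and 11.6 RPKM in DM-aKG and at 12.4, 8.02 and 9.27 RPKM in control. Its groups overlapped through control replicate 1, and its log2 fold change was 0.32 ± 0.16 (limma, adjusted p = 0.114). Without control replicate 1, Clca1 was called higher (log2 fold change 0.49, adjusted p = 0.0185), while its adjusted p ran from 0.00645 to 0.588 over the alternatives tried. Zg16, a lectin that binds Gram-positive bacteria, was at 65.3, 29.6 and 29.9 RPKM in DM-aKG and at 42.3, 32.7 and 36.1 RPKM in control. Replicate 1 of DM-aKG was above every control, and replicates 2 and 3 were below every control. The log2 fold change of Zg16 was 0.07 ± 0.28 with all libraries (limma, adjusted p = 0.848). With DM-aKG replicate 1 left out, Zg16 was called lower at a log2 fold change of -0.30 (limma, adjusted p = 0.0242; range over the alternatives 0.00184 to 0.973). On GRCm38, Clca1 lies on chromosome 3 from 145003817 to 145032776 and Zg16 on chromosome 7 from 127050156 to 127087328, both on the minus strand. The noncoding genes Gm44939 and Gm22747 overlap Zg16 on the other strand, so its level is uncertain if strand was not used in counting.

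Tff3 and Spink4 were the most abundant members in both groups. Tff3, a trefoil peptide that takes part in epithelial repair, was at 438, 334 and 338 RPKM in DM-aKG and at 1034, 1023 and 963 RPKM in control. It ranked 125th to 160th among all genes in the DM-aKG libraries and 39th to 46th in the controls. The log2 fold change of Tff3 was -1.45 ± 0.10 (limma, adjusted p = 3.85e-05). Spink4, a small protein of the Kazal family of protease inhibitors, was at 281, 187 and 173 RPKM in DM-aKG and at 705, 744.5 and 675 RPKM in control, so the groups lay far apart. Its log2 fold change was -1.76 ± 0.16 (limma, adjusted p = 1.17e-04). Klk1, tissue kallikrein, a secreted serine protease that releases kinins, was the least abundant member, at 0.79, 0.99 and 1.22 RPKM in DM-aKG and at 4.42, 3.97 and 4.37 RPKM in control. For Klk1 the log2 fold change was -1.67 ± 0.11 (limma, adjusted p = 3.21e-05), and DM-aKG replicate 1 was here the lowest library. With the exons of GENCODE M21 (1077 bases), these levels stand for about 29.1 to 42.9 reads per DM-aKG library, a counting error of 15.3% to 18.5%, and 144 to 158 reads per control library. Klk1 has close relatives in mouse, the Klk1b genes, among which reads could be divided, so its level is uncertain, but none of the 13 Klk1b genes in the table exceeded 0.04 RPKM in any library. On GRCm38, Tff3 lies on chromosome 17 from 31125306 to 31129646 (minus strand), Spink4 on chromosome 4 from 40920052 to 40931395 (plus strand) and Klk1 on chromosome 7 from 44225360 to 44229618 (plus strand). A pseudogene, Gm10109, overlaps Klk1 on the opposite strand, and reads of the pair could not be told apart if strand was not used.

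Agr2 and Creb3l1 act inside the cell. Agr2, a protein disulfide isomerase of the endoplasmic reticulum needed for MUC2 production, was at 57.4, 30.9 and 28.2 RPKM in DM-aKG and at 137, 128 and 126 RPKM in control. Replicate 1 of DM-aKG was 1.94 times the mean of replicates 2 and 3, and all 3 were below the controls. Its log2 fold change was -1.81 ± 0.23 (limma, adjusted p = 5.26e-04), or -2.12 with DM-aKG replicate 1 left out. Creb3l1, an ER-bound transcription factor that is cleaved and moves to the nucleus to raise secretory capacity, was at 4.08, 4.21 and 4.21 RPKM in DM-aKG and at 5.82, 5.86 and 5.92 RPKM in control. Creb3l1 had the smallest fall of the 7, with a log2 fold change of -0.45 ± 0.05 (limma, adjusted p = 2.52e-04), and the narrowest spread among libraries. It lies on chromosome 2 from 91982328 to 92024502 (minus strand). Tspan13, the tetraspanin, was at 44.0, 40.2 and 42.3 RPKM in DM-aKG and at 41.0, 35.4 and 37.0 RPKM in control. The groups overlapped through control replicate 1, and the log2 fold change of Tspan13 was 0.16 ± 0.06 (limma, adjusted p = 0.0630). Without control replicate 1, Tspan13 was called higher (log2 fold change 0.22, adjusted p = 0.0190), and its adjusted p ran from 0.0190 to 0.233 over the alternatives.

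**Figure D2:**
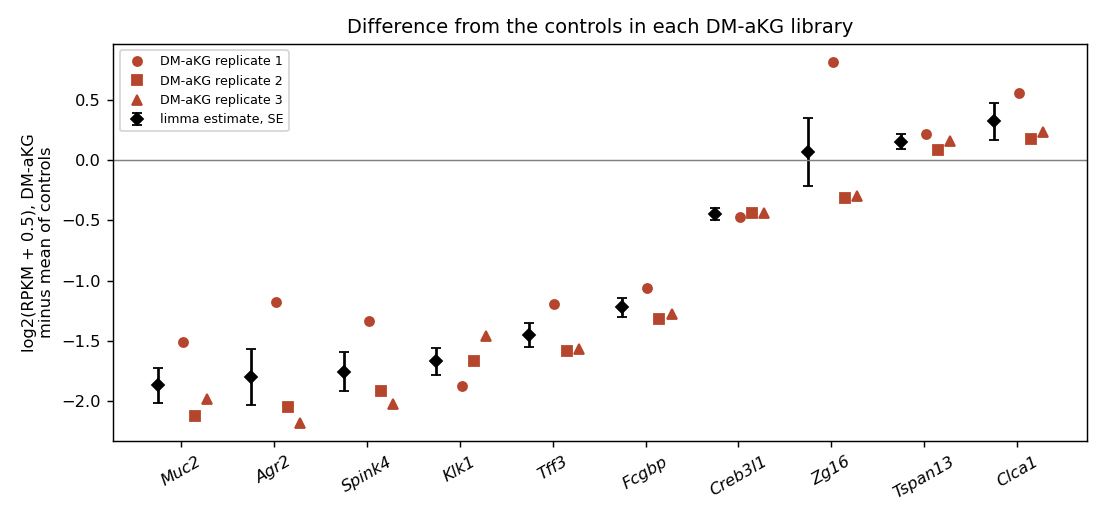
Difference of log2(RPKM + 0.5) from the mean of the 3 controls for each DM-aKG library (red symbols), with the limma estimate and its SE (black), ordered by the estimate. Replicate 1 (circles) is the highest of the 3 for 8 genes and the lowest for Klk1 and Creb3l1, and for Zg16 it lies on the other side of 0 from replicates 2 and 3.

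The order of the members by level was not the same in both groups. In DM-aKG the order by mean was Tff3, Spink4, Fcgbp, Tspan13, Zg16, Agr2, Clca1, Creb3l1, Muc2 and Klk1. The ranges of Tspan13 and Zg16, of Zg16 and Agr2, and of Muc2 and Klk1 overlapped there. In control it was Tff3, Spink4, Fcgbp, Agr2, Tspan13, Zg16, Clca1, Muc2, Creb3l1 and Klk1, where among neighbours in the order the ranges of Tspan13 and Zg16 overlapped and those of the other pairs did not. The order rests on the exon lengths behind the RPKM, which were not checked here. Together the 10 genes summed to 1048, 757 and 752 RPKM in DM-aKG and to 2302, 2287 and 2139 RPKM in control, which is 0.290%, 0.208% and 0.210% of the RPKM sum of the DM-aKG libraries and 0.622%, 0.610% and 0.579% of that of the controls. Tff3 made up 41.8% to 45.0% of the members' sum in DM-aKG and 44.7% to 45.0% in control, while Tff3, Spink4 and Fcgbp together made up 82.0% to 84.4% in DM-aKG and 89.1% to 90.4% in control. The ratio of Muc2 to Tff3 within a library had a log2 mean of -7.97 ± 0.21 in DM-aKG and -7.22 ± 0.05 in control (SD, n = 3 each; exact two-sided permutation test, p = 0.1, the smallest p that 3 against 3 libraries allow).

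Several members lie beside relatives on the chromosome. Agr2 and Tspan13 are adjacent on chromosome 12, with Agr2 at 35992907 to 36004087 (plus strand), Tspan13 at 36014557 to 36042500 (minus strand) and 10.5 kb between them. The ratio of Agr2 to Tspan13 was 1.31, 0.769 and 0.666 in DM-aKG and 3.35, 3.61 and 3.40 in control, a difference of -1.98 on the log2 scale (exact two-sided permutation test, p = 0.1, again the smallest possible). Agr3, the paralog of Agr2 on its other side, was at 3.46, 1.64 and 1.50 RPKM in DM-aKG and at 4.21, 4.35 and 3.69 RPKM in control, and its log2 fold change was -0.83 ± 0.24 (limma, adjusted p = 0.0187). The call of Agr3 was lost in 5 of 17 alternatives, among them leaving out control replicate 1, control replicate 2, DM-aKG replicate 2 or DM-aKG replicate 3 (adjusted p from 2.78e-05 to 0.0679), and its log2 fold change was -1.14 without DM-aKG replicate 1. The next gene beyond Tspan13, Bzw2, had a log2 fold change of -0.24 ± 0.05 (limma, adjusted p = 0.00694).

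The 3 trefoil factor genes span 40.0 kb of chromosome 17, and the outer 2 went in opposite directions. Tff1, the trefoil peptide best known from the stomach, was at 41.1, 19.1 and 22.3 RPKM in DM-aKG and at 7.08, 6.18 and 7.13 RPKM in control. Tff1 rose, with a log2 fold change of 1.86 ± 0.25 (limma, adjusted p = 5.81e-04), while Tff3, 31.7 kb away, fell. Without DM-aKG replicate 1, the value for Tff1 was 1.54, called as well. Tff2, between them, lay below the filter, at 0.31, 0.11 and 0 RPKM in DM-aKG and at 0.48, 1.30 and 0.59 RPKM in control. The relatives of Muc2 beside it, Muc6, Muc5ac and Muc5b, did not exceed 0.03 RPKM in any library, so Muc2 was the only one of the 4 gel-forming mucins measured at that locus above this level.

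On chromosome 3, Clca1 lies in a cluster of related genes, and the 2 others with a mean of at least 1 RPKM in both groups, Clca3b and Clca4b, fell. Clca3b was at 57.8, 27.6 and 26.7 RPKM in DM-aKG and at 133, 146 and 137 RPKM in control, well above Clca1, and its log2 fold change was -1.97 ± 0.26 (limma, adjusted p = 6.13e-04). Leaving out DM-aKG replicate 1 gave -2.33 for Clca3b. Clca4b, the nearest tested gene to Clca1 on one side, averaged 29.4 ± 6.45 RPKM in DM-aKG and 57.4 ± 6.16 RPKM in control (SD, n = 3 each), a log2 fold change of -0.97 ± 0.14 (limma, adjusted p = 9.95e-04). Clca3a1 and Clca3a2 fell by 1.13 ± 0.19 and 0.85 ± 0.13, but both passed the filter only through the controls. Clca4a, below the filter, was at 0.41, 0.48 and 0.49 RPKM in DM-aKG and at 0.27, 0.17 and 0.20 RPKM in control, with every DM-aKG library above every control. The Clca genes are similar in sequence, so reads could be divided among them and their levels are uncertain. Over all members, the nearest tested genes on either side that are no members numbered 18, of which 6 were called lower, 4 higher and 8 neither, with a median log2 fold change of -0.01. These counts lie near the shares over all genes tested, 24.7% lower and 30.9% higher.

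**Figure D3:**
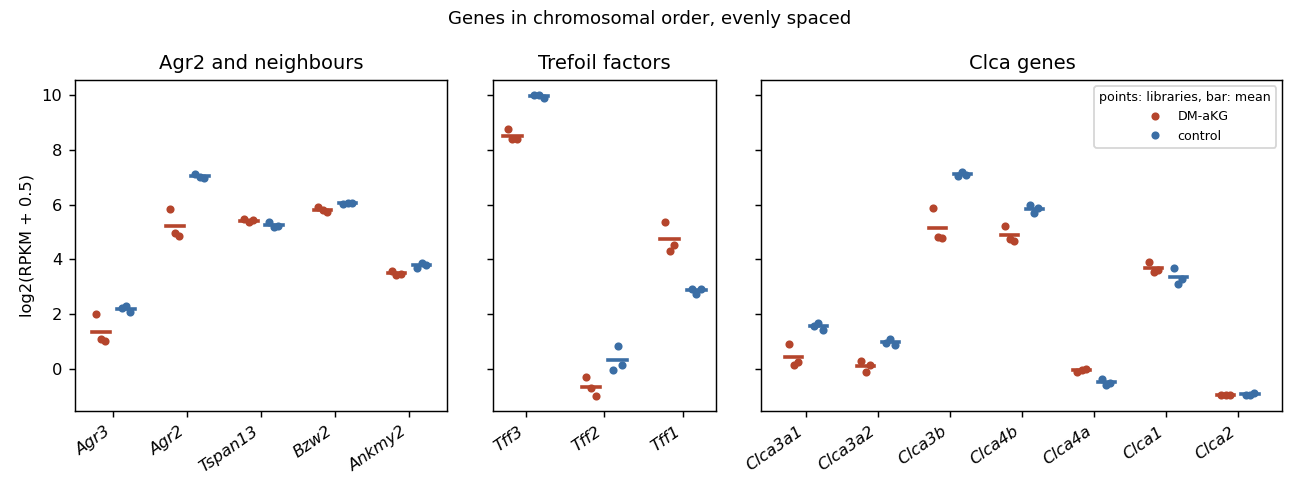
log2(RPKM + 0.5) in each DM-aKG library (red) and control library (blue), with group means as bars, for genes at the loci of Agr2, Tff3 and Clca1 in chromosomal order. Agr2 is lower and its neighbour Tspan13 overlaps, Tff3 is lower and Tff1 higher, and Clca3b and Clca4b are lower while Clca1 overlaps.

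Regulators of the secretory lineage and of goblet cells were lower as well. Of 10 listed, 9 passed the filter and all 9 were called lower and 0 higher, with a median log2 fold change of -0.68, against 24.7% called lower among all genes. Ern2, which encodes the goblet cell ER stress sensor IRE1β, averaged 0.737 ± 0.152 RPKM in DM-aKG and 3.42 ± 0.144 RPKM in control (SD, n = 3 each; limma, adjusted p = 2.16e-05). Spdef, a transcription factor of goblet cell maturation, averaged 0.737 ± 0.278 RPKM in DM-aKG and 3.54 ± 0.153 RPKM in control (limma, adjusted p = 8.80e-05). Atoh1 fell by 1.21 ± 0.12 and Foxa3, a forkhead factor of goblet cells, by 0.50 ± 0.05 on the log2 scale. Of 5 tested relatives of Creb3l1, 2 were lower, 1 higher and 2 neither, against 24.7% lower and 30.9% higher among all genes. The lower count was 1 in 5 of 17 alternatives. Creb3l4 had a log2 fold change of -1.68 ± 0.19 and Creb3l2 of -0.41 ± 0.11, whereas Creb3l3, known from enterocytes and liver, rose by 0.82 ± 0.07. Creb3 and Atf6 were not called. Of the 9 regulators tested, Spdef, Ern2 and Creb3l4 passed the filter only through the controls. The 6 other regulators, whose means were at least 1 RPKM in both groups, were also all called lower.

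Of 20 other genes enriched in goblet cells, 14 were tested, with 8 lower, 2 higher and 4 not past the threshold, against 24.7% lower and 30.9% higher among all genes, and a median log2 fold change of -0.57. Without DM-aKG replicate 1, 12 of the 14 were called lower and 2 higher, against 3200 lower and 3660 higher of 10845 genes tested. The 4 added were Ang4, Bcas1, Scin and Sytl2, with log2 fold changes of -1.13, -0.40, -0.24 and -0.14 in all libraries and -1.79, -0.60, -0.47 and -0.23 without it. Ang4 is also counted among the Paneth cell markers. Tpsg1 and Rep15 passed the filter only through the controls. Among the 12 genes with a mean of at least 1 RPKM in both groups, 6 were lower, 2 higher and 4 neither, or 10 lower and 2 higher without DM-aKG replicate 1. The ion transporter gene Slc12a8 averaged 8.01 ± 2.02 RPKM in DM-aKG and 21.4 ± 0.358 RPKM in control (SD, n = 3 each; limma, adjusted p = 1.77e-04), and Guca2a, which encodes the secreted peptide guanylin, fell by 1.46 ± 0.22. Tpsg1, a tryptase, was at 0.55 to 1.09 RPKM in DM-aKG and at 5.45 to 6.09 RPKM in control. Lrrc26, which encodes a potassium channel subunit, fell by 0.78 ± 0.09 and Smim6 by 0.67 ± 0.09. The 2 that rose were Bace2, a protease, by 0.37 ± 0.08, and Oit1, by 0.36 ± 0.07 on the log2 scale. The gene Retnlb, a goblet cell resistin-like peptide, was at 0 in all 6 libraries.

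The general machinery that goblet cells use for folding and export was lower by small amounts. Of 25 genes of the endoplasmic reticulum and early secretory pathway, 22 were called lower, 0 higher (none at an unadjusted p under 0.05 by limma) and 3 neither, against 24.7% lower among all genes, with a median log2 fold change of -0.34. Pdia5, a disulfide isomerase, had the largest fall of the list and was at 5.09, 4.66 and 3.88 RPKM in DM-aKG and at 10.9, 10.9 and 11.2 RPKM in control (log2 fold change -1.20 ± 0.09; limma, adjusted p = 4.28e-05). Tmed3, a cargo receptor of early transport vesicles, fell by 0.81 ± 0.06, Txndc5, another disulfide isomerase, by 0.59 ± 0.05, and Sec61b, a subunit of the translocon, by 0.54 ± 0.05. Kdelr3, which returns proteins to the endoplasmic reticulum, had a log2 fold change of 0.27 and was called higher (0.50) without DM-aKG replicate 1. Of the enzymes that build the sugars of mucins, 5 of 13 tested were lower, 3 higher and 5 neither, with a median of -0.01. Among all genes, 24.7% were lower and 30.9% higher. Over the alternatives, 4 to 6 of these enzymes were called lower and 3 to 4 higher. Galnt12, a transferase that starts mucin-type glycans, fell by 1.46 ± 0.15 on the log2 scale, while Galnt3, another such transferase, rose by 0.49 ± 0.06 and C1galt1, which makes the core 1 structure, rose by 0.36 ± 0.05. Galnt7, a follow-on transferase of the same family, fell by 0.40 ± 0.05, and Gcnt3, a branching enzyme, rose by 0.42 ± 0.10. The membrane mucin gene Muc13 averaged 128 ± 2.93 RPKM in DM-aKG and 154 ± 6.96 RPKM in control (SD, n = 3 each), a log2 fold change of -0.27 ± 0.05 (limma, adjusted p = 0.00190). Of 18 tested relatives of Tspan13, 5 were lower and 8 higher, with a median of 0.05, against 24.7% lower and 30.9% higher among all genes. The lower count was 3 without control replicate 3, and the higher count was 5 under quantile normalization. Tspan4 rose by 0.94 ± 0.10 and Tspan12 by 0.52 ± 0.07, and Tspan3 fell by 0.48 ± 0.05 and Cd63 by 0.39 ± 0.04.

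**Figure D4:**
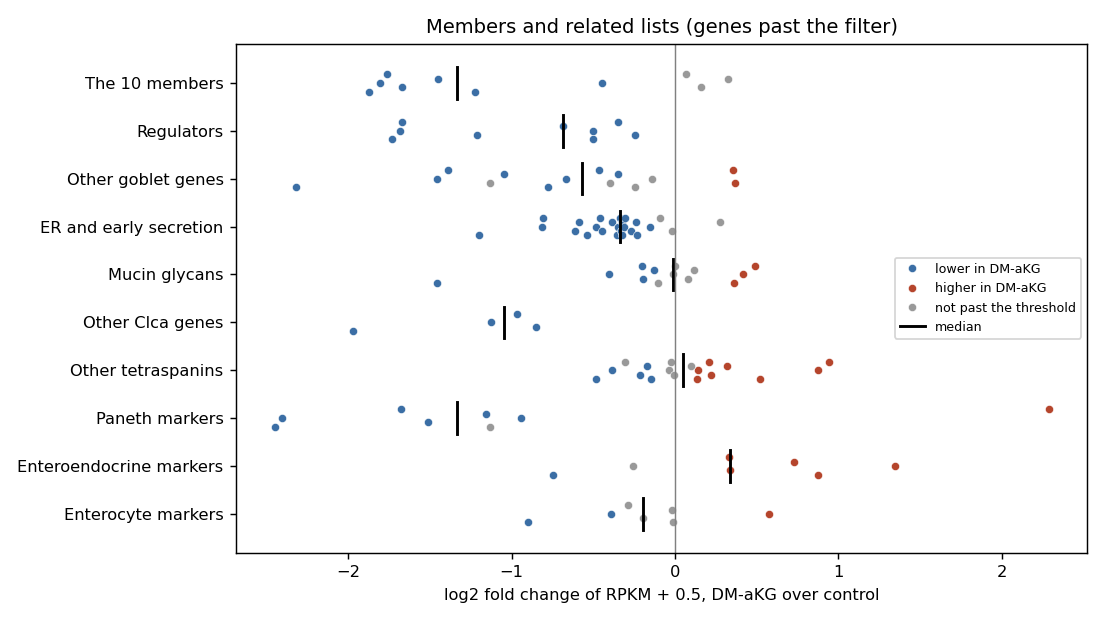
log2 fold change (DM-aKG over control) of each gene past the filter in the members, in related lists and in markers of other cell types, with calls in blue (lower) and red (higher), genes not past the threshold in grey, and the list median as a black bar. The medians are -1.34 for the members, -0.68 for the regulators, -0.34 for ER and early secretion and -0.01 for mucin glycans.

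Markers of other cell types are given beside the goblet genes. The counts from all 6 libraries stand against 24.7% called lower and 30.9% called higher among all genes tested. Without DM-aKG replicate 1, 3200 of 10845 genes tested were called lower and 3660 higher. Without it and control replicate 2, 3270 of 10837 were called lower and 3721 higher. Leaving out any other single library gave 2049 to 2261 genes called lower. Of 8 Paneth cell markers, 6 were lower and 1 was higher (Pla2g2a, which passed the filter only through DM-aKG), with the sums given above. The 1 that was neither was Ang4, which is also counted among the other goblet cell genes. The lower count was 7 without DM-aKG replicate 1, 5 without control replicate 1 and 4 when any other single library was left out. Of 7 enteroendocrine markers 5 were higher and 1 lower, with sums of 529.6 to 554 RPKM in DM-aKG and 376 to 395 RPKM in control. The lower one was Neurog3, with a log2 fold change of -0.75 (limma, adjusted p = 0.00713). Of 7 enterocyte markers 1 was higher, 2 lower and 4 neither, or 4 lower without DM-aKG replicate 1 and 6 lower without it and control replicate 2. The 5 stem cell markers were all lower, with sums of 135 to 180.2 RPKM in DM-aKG and 317 to 379 RPKM in control. Of the tuft cell markers only Avil passed the filter, and only through DM-aKG. Avil was at 7.56, 1.94 and 1.56 RPKM in DM-aKG and 1.18, 0.89 and 0.87 RPKM in control. Its log2 fold change of 1.22 was not called (limma, adjusted p = 0.0516). Below the filter, Dclk1 averaged 0.12 RPKM in DM-aKG and 0.16 RPKM in control, and Trpm5 0.26 and 0.43 RPKM. Pou2f3 averaged 0.85 and 0.81 RPKM, and Gfi1b 0.05 and 0.01 RPKM. The part of these other cell types in the goblet gene values was not tested.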

How the data were processed

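RNA-seq of 6 libraries was analysed from the table of RPKM (2 decimals) that the authors deposited. Per the labels, a Qiagen kit gave total RNA and TruSeq reagents were used. The submitters' processing notes name mm10 and the tools Partek, HISAT2 2.0.4 and CASAVA 1.8. No source used here names the annotation, the strand setting or the treatment of multiply aligned reads. RPKM depends on the gene model, so a level is only as exact as the exon length used.

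Columns were matched to samples by title. Genes with a mean of at least 1 RPKM over the 6 libraries (10852 of 24956) were compared as log2(RPKM + 0.5) with limma 3.58.1 in R 4.3.3 (mean-variance trend, two-sided, Benjamini-Hochberg adjustment over all genes tested). The fit was tested on simulated data. The depth of each library came from short RNA genes (miRNA, snoRNA; up to 150 bases), as the read total that puts most values at 1 read; 91.4% to 94.4% of the values of 2 to 5 reads then came out whole within 0.05 reads. Counting errors cover counting only. Positions are from GENCODE M21 (GRCm38), upstream sequences from RefSeq (GRCm38.p6).

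The members and lists were chosen with earlier results of these data known, and the motifs after their values were seen. Named genes are all members, up to 4 genes of each list with the smallest p, those called against their list's majority, and the nearest tested neighbours; other examples were chosen after their values were seen. Alternatives were other pseudocounts, filters, scalings and variance models, weights for each array, a replicate block and the omission of libraries.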

Additional observations from a re-analysis of the deposited data

How the results depend on the processing

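In all 17 alternatives run, Muc2, Tff3, Fcgbp, Agr2, Spink4 and Creb3l1 were called lower; Klk1 was called lower in the 16 that tested it, since a filter at a mean of 3 RPKM removed it. The number of members called lower ran from 6 to 8. The number called higher, 0 in the analysis reported, was 1 with equal RPKM sums (Tspan13), 1 with array weights (Tspan13) and 0 to 2 when 1 library was left out, with 2 (Clca1 and Tspan13) without control replicate 1. Zg16 changed sign in 4 alternatives. Its log2 fold change was -0.23 with array weights and -0.39 without control replicate 2 and DM-aKG replicate 1 together. When 1 library was left out it was -0.30 to 0.26, with -0.30 without DM-aKG replicate 1 and -0.02 without control replicate 2. It was called, as lower, only in the 2 alternatives that left out DM-aKG replicate 1. The cause was not tested. Among the related lists, 1 ER and early secretion gene was called higher with array weights, without DM-aKG replicate 1, and without it and control replicate 2, and 1 Clca gene was called higher with no filter on low values. The other goblet cell genes called lower, 8 of 14 as reported, numbered 12 with array weights and without DM-aKG replicate 1, and 11 without it and control replicate 2; the tetraspanins called lower, 5 as reported, numbered 3 without control replicate 3. The members' median log2 fold change stayed between -1.44 and -1.22. Over all genes, 2049 to 3563 were called lower and 2699 to 4149 higher; centring on the median gave 3340 lower and 2790 higher, against 2679 and 3354 as reported, without a change in the members' calls.

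The labels number the replicates 1 to 3 in each group, but same-numbered libraries did not deviate together (r = -0.08, -0.11 and 0.01 across genes). The design text names no pairing. Deviations from means of 3 libraries cannot settle whether same-numbered libraries shared a mouse or a batch. With the replicate block, 7 members were called lower and 2 higher (Clca1, adjusted p = 0.00645, and Tspan13, adjusted p = 0.0268, by limma). Depth limits Klk1 most, with about 29.1 reads in its lowest library.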

Other observations

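Of the 20 other goblet cell genes, 6 lay below the filter on low values and were not tested. Ccl9, a chemokine gene, was at 0.10, 0.02 and 0.06 RPKM in DM-aKG and at 1.31, 1.29 and 1.51 RPKM in control. Ramp1, a receptor accessory protein gene, was at 0.57, 0.23 and 0.26 RPKM in DM-aKG and at 1.44, 1.10 and 0.92 RPKM in control. Capn9, a calpain of the digestive tract, was at 0.50, 0.25 and 0.34 RPKM in DM-aKG and at 0.91, 0.73 and 0.93 RPKM in control. Pla2g10, a secreted phospholipase gene, was at 0.13, 0.03 and 0.03 RPKM in DM-aKG and at 0.47, 0.43 and 0.33 RPKM in control. In these 4 genes the DM-aKG libraries all lay below the controls, as they did in 28.9% of genes tested. The share among genes below the filter was not computed. The calpain gene Capn8 overlapped, with 0.42 to 0.64 RPKM in DM-aKG and 0.57 to 0.64 RPKM in control. Among the regulators, Gfi1, which encodes a transcriptional repressor that acts within the secretory lineage, was at 0.20, 0.14 and 0.15 RPKM in DM-aKG and at 0.87, 0.69 and 0.78 RPKM in control.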
